A study of Mus musculus with 6 samples.

Results

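Serine proteases of the Prss and Tmprss families were followed in testis RNA from mice labelled L3mbtl2 cKO and control. The members are all listed genes whose symbol starts with Prss or Tmprss followed by a digit: 48 genes, 32 Prss and 16 Tmprss, of 23253 genes listed in any library. They were divided by general knowledge of the genes into 16 sperm proteases, which are made by meiotic and haploid germ cells, and 32 others. The libraries were poly(A)-selected RNA of whole testes of C57BL/6 mice aged 8 months, 3 labelled L3mbtl2 cKO (conditional knockout) and 3 labelled control. L3MBTL2 is a chromatin protein of a Polycomb repressive complex, PRC1.6, and the comparison asks how its loss alters the testicular transcriptome. The labels name neither the driver of the deletion nor the cell type that lost the gene, and the genotype of the control animals is given no further. The labels do not state whether each library is a different animal; the p-values therefore reflect library-to-library spread, which may be technical.

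Trypsin-like serine proteases cut proteins after basic residues and are usually made as inactive precursors that another protease activates. Prss genes encode mostly secreted or lipid-anchored enzymes, Tmprss genes mostly enzymes held in the cell surface by a transmembrane segment near the amino end. In the testis a large subset is made mostly by germ cells. Some of these enzymes sit in the acrosome, the secretory vesicle over the sperm nucleus. Others act while sperm membrane proteins are processed: in the mouse, males without Prss37, Prss55 or Tmprss12 make sperm that fail to pass from the uterus into the oviduct, and such sperm lack mature ADAM3, a membrane protein, or hold less of it.

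Facts of the whole series touch every direction given here. Expected counts summed to between 18604191 and 18822050 in the libraries labelled cKO and between 17689205 and 18083291 in those labelled control. The targeted gene stood higher under the label cKO: for L3mbtl2 the expected counts were 1030, 1105 and 1031 in the libraries labelled cKO, against 658, 705 and 673 in those labelled control (log2 0.67, SE 0.10; edgeR adjusted p = 0.166). In FPKM the difference was smaller, at 16.3 ± 0.663 in the libraries labelled cKO and 14.2 ± 0.660 in those labelled control (SD, n = 3 each), and the groups did not overlap. Table names give each library the other genotype than its sample title does, so each library is called here by its label, and every direction would turn if the labels were exchanged. The libraries labelled cKO resembled each other, with correlations of log2 CPM (depth-scaled counts) of 0.981 to 0.982 over genes, whereas those labelled control ran from 0.937 to 0.972. Markers of somatic cells moved with this: the summed FPKM (fragments scaled for gene length and library depth) of 10 Leydig cell genes was 1496, 1651 and 1513 in the libraries labelled cKO, against 4256, 2107 and 10288 in those labelled control. The sum of 13 Sertoli cell genes was 865 to 917 FPKM in the libraries labelled cKO, against 1151 to 2906 FPKM in those labelled control. That of 22 spermatid genes was 31824 to 34472 FPKM in the libraries labelled cKO, against 22197 to 30749 FPKM in those labelled control. The library labelled control replicate 3 was the most somatic of the 6 and the library labelled control replicate 2 the closest to those labelled cKO. In whole-tissue RNA, fewer cells of a type and less RNA per cell cannot be told apart.

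The starts of several sperm protease genes are shown here because the factors MGA and MAX, which are partners of L3MBTL2 in PRC1.6, bind the letters CACGTG, called an E-box. Windows of 250 bases before to 50 bases after the annotated start (RefSeq, GRCm38.p6, whose chromosomes are those of mm10) were given for 34 of the 48 members, and for 11 of the 16 sperm proteases. The motif reads the same on both strands. It was in the windows of Prss39, Prss40, Prss42 and Prss45 among the sperm proteases, and of Prss38 among the others. Thus 4 of 11 sperm protease windows and 5 of the 34 member windows held it, against 7.24% of all 27025 windows in the table. The motifs were chosen with earlier results of these data known, and enrichment was not tested. In the sequences below, 5′ to 3′ in the direction of transcription, the E-box is in capitals. Prss39 and Prss45 are shown from 250 bases before the start to 10 bases after it, with Prss46, the next gene after Prss45, as a neighbour whose window lacks the motif, and Prss40 and Prss42 as 30 bases around it.
Prss39, chr1:34498162-34498421, plus strand: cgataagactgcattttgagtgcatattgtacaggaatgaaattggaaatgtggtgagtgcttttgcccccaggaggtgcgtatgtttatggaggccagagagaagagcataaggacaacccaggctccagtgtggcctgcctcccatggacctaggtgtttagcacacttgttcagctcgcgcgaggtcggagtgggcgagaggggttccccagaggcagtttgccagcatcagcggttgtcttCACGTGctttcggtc
Prss45, chr9:110834338-110834597, plus strand: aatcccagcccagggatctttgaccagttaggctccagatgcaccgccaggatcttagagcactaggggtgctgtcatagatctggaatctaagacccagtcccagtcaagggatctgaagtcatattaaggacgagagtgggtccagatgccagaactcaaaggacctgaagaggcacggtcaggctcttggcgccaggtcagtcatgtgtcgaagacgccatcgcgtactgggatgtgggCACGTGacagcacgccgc
Prss46, chr9:110844256-110844515, plus strand: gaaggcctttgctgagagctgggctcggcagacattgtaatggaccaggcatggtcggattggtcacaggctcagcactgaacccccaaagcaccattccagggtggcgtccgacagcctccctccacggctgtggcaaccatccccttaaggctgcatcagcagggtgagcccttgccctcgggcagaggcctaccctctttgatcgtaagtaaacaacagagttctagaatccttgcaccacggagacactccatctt
Prss40, chr1:34560937-34560966, minus strand: agcggttgtttgCACGTGgttttggtcctg
Prss42, chr9:110798124-110798153, plus strand: acggagggcggcCACGTGagcctggggagc

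The motif began 5 bases before the start in Prss39, 8 bases before it in Prss45, 11 in Prss40, 49 in Prss42 and 66 in Prss38. The start is that of the transcript used for the RefSeq window, which is also the outer end of the gene in Prss39, Prss45, Prss46 and Prss38. In Prss40 it lies 61 bases inside the gene's outer end and in Prss42 937 bases inside it (start at 110798185), so those positions hold for that transcript. Prss39 and Prss40 lie beside each other on chromosome 1, and 23 of the 27 bases from 12 before the motif to 9 after it were the same in both. Both genes are in the counts given above, although their matches cannot be taken as independent. Of the other motifs searched on both strands, the full cyclic AMP response element TGACGTCA, bound by the spermatid activator CREM, was in 0 of 34 windows, against 1.88% of all windows. The E2F6 motif GCGGGAA was in 1, that of Tmprss12 (4.66% of all windows), and the RFX half-site GTTGCC in 2, those of Prss46 and Prss21 (12.7%). The MYB core AACTG was in 20 of 34 (44.8% of all windows) and the response element half-site TGACG, which the full element contains, in 6 (21.0%). A match is a run of letters in a window, not a site shown to be bound. The log2 fold changes described below ran from 0.33 to 0.41 for the 4 sperm proteases with an E-box and from 0.027 to 0.43 for the 7 without.

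Most of the sperm proteases stood at the upper end of the family by level. The class holds genes chosen as made by germ cells, with earlier results of these data known, so its level in testis is a description and not a test. All 16 were listed in every library, and 15 of them had a mean FPKM of at least 10 over the 6 libraries, against 2 of the 32 others, Prss58 and Prss56. Together they summed to 946, 907 and 906 FPKM in the libraries labelled cKO, against 783, 873 and 648 FPKM in those labelled control. The 32 others summed to 112, 103 and 106 FPKM in the libraries labelled cKO, against 103, 104 and 108 FPKM in those labelled control. All 48 members took 0.121 to 0.127% of the expected counts in the libraries labelled cKO, against 0.0953 to 0.117% in those labelled control. The order was steep at its top, where the ranges over the 6 libraries of Prss39, Prss37, Prss55 and Prss58 did not overlap from one gene to the next. From Prss58 down to Prss42 each gene's range overlapped that of the next one. Within a library the order was firmer, since 5 of those 8 neighbouring pairs stood in the same order in all 6 libraries, and the other 3 in 5 of 6.

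**Figure D1:**
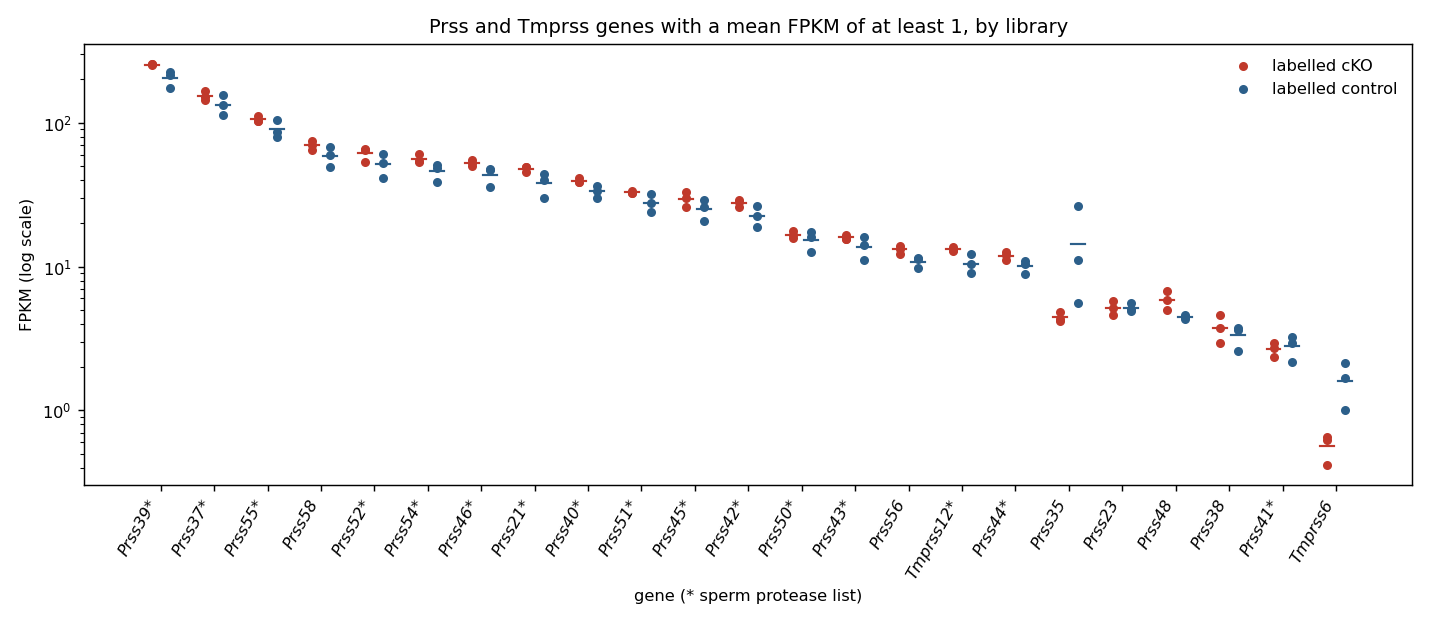
FPKM on a log scale (vertical axis) of the 23 members with a mean of at least 1 (horizontal axis, in order of their mean), with 1 point for each of the 3 libraries labelled cKO (left of each tick) and the 3 labelled control (right) and a line at each mean. Asterisks mark the sperm proteases. Prss39 stood highest, at 253 FPKM on average in the libraries labelled cKO against 204 in those labelled control, and Prss35 showed the widest spread among the libraries labelled control, from 5.57 to 26.6 FPKM.

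No member passed the test between the groups: edgeR's quasi-likelihood test on all 18269 genes that passed a filter on low counts called 0 genes higher and 0 lower at an adjusted p of 0.05, thus 0% of genes in each direction. Without adjustment, p was under 0.05 for 1617 genes (8.85%) on the higher side and for 3439 (18.8%) on the lower side. DESeq2, run as an alternative, called 85 genes higher (0.547%) and 1458 lower (9.38%), and among the members it called only Prss35, giving no adjusted p for Tmprss6 and Tmprss13. All 16 sperm proteases passed the filter, and all 16 had a log2 fold change above 0, from 0.027 to 0.43, with a median of 0.34, a 1.27-fold difference, but 10 of them lay below 0 with spermatid gene scaling. The median of all genes tested was -0.0048. At an unadjusted p of 0.05, 9 of the 16 were higher, and their adjusted p-values ran from 0.166 to 0.954. In FPKM, for 8 of the 16 the lowest cKO-labelled library exceeded the highest control-labelled one, a pattern that 9.6% of genes tested showed. The spermatid markers, which share cells with these proteases, stood alike: 22 of 22 were above 0 with a median of 0.36 (-0.0027 when scaled to themselves), and 18 of them had an unadjusted p under 0.05. So did the spermatocyte markers, with 11 of 12 above 0 and a median of 0.30 (-0.060 with spermatid gene scaling). Of these, 5 were higher at an unadjusted p of 0.05.

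A single library decided how many were called. With the library labelled control replicate 2 left out, the genes that edgeR called were 2049 higher (11% of 18641) and 3851 lower (20.7%), and among them 12 of the 16 sperm proteases were higher, all but Prss41, Prss44, Prss45 and Prss50. Without the library labelled control replicate 3, none was called, the median was 0.24, and Prss41 turned to -0.14. When each library was scaled to its own spermatid marker counts instead of by TMM (trimmed mean of M-values, a scaling on all genes), the median of the sperm proteases was -0.028, with 6 above 0 and 10 below. That scaling moved the median of all genes to -0.39. Per 1000 FPKM of spermatid markers, the sperm proteases summed to 27.4, 27.8 and 28.5 FPKM in the libraries labelled cKO, against 27.0, 28.4 and 29.2 FPKM in those labelled control. The means were 27.9 ± 0.531 in the libraries labelled cKO and 28.2 ± 1.10 in those labelled control (SD, n = 3 each), and the groups overlap.

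**Figure D2:**
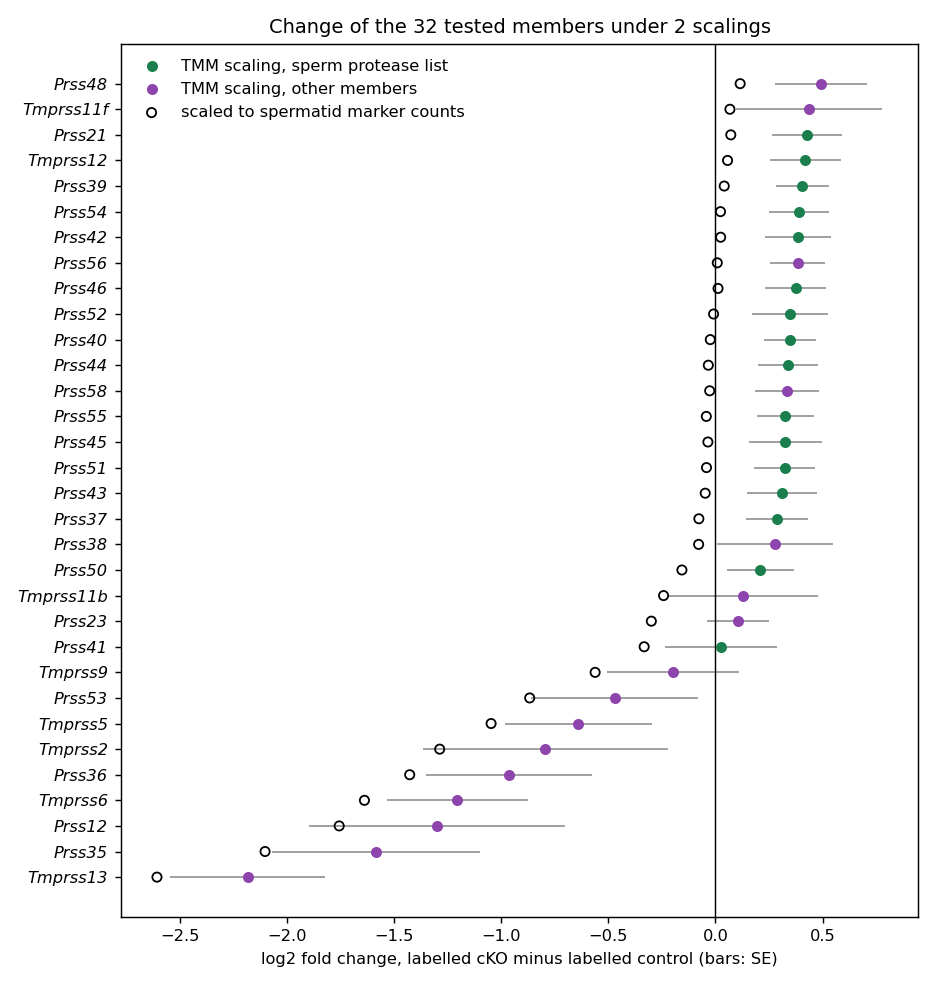
Log2 fold change, labelled cKO minus labelled control (horizontal axis), of the 32 members that passed the filter (vertical axis), from edgeR with TMM scaling (filled points, bars show the SE) and with each library scaled to its spermatid marker counts (open circles). The sperm proteases lie from 0.027 to 0.43 with TMM scaling and from -0.33 to 0.072 with the spermatid scaling. The points at -2.18 and -2.61 are those of Tmprss13, which passed the filter through the libraries labelled control, where it was higher. Its size is therefore not compared with that of other members.

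The proteases of the acrosome and sperm surface include the most abundant member, Prss39. Prss39, a trypsin-like protease of the mouse sperm acrosome (Entrez 21755), had 250.9, 254 and 256 FPKM in the libraries labelled cKO, against 214, 226 and 173 FPKM in those labelled control. The groups did not overlap, and its log2 fold change was 0.41 (SE 0.13; edgeR adjusted p = 0.166). Its neighbour Prss40, another acrosomal trypsin-like protease, had 38.8, 38.4 and 41.6 FPKM in the libraries labelled cKO, against 33.3, 36.5 and 29.98 FPKM in those labelled control, again with no overlap (log2 0.35, SE 0.12). Per length, Prss40 was below Prss39 in every library. Prss21, or testisin, a lipid-anchored protease that mouse sperm need to mature, had 49.3, 49.1 and 45.1 FPKM in the libraries labelled cKO, against 39.9, 44.0 and 29.95 FPKM in those labelled control. Its groups did not overlap either, and at log2 0.43 (SE 0.16; adjusted p = 0.168) its difference was the widest of the sperm proteases. The library labelled control replicate 3 was the lowest of the 6 for all 16 sperm proteases, and the library labelled control replicate 2 was the highest of the control ones for 14 of them.

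The proteases tied to ADAM3 and sperm migration spanned a wide range of levels. Prss37 had 165, 143 and 150 FPKM in the libraries labelled cKO, against 132, 156 and 113 FPKM in those labelled control, and the groups overlapped (log2 0.29, SE 0.15). Prss55, which is lipid-anchored, had 112, 102 and 103 FPKM in the libraries labelled cKO, against 86.0, 105 and 79.3 FPKM in those labelled control, also with overlap through the library labelled control replicate 2 (log2 0.33, SE 0.13). The membrane protease Tmprss12, the only Tmprss gene with a mean FPKM above 10, had 12.8, 12.97 and 13.7 FPKM in the libraries labelled cKO, against 10.4, 12.1 and 8.96 FPKM in those labelled control. Its groups did not overlap (log2 0.42, SE 0.17; adjusted p = 0.171). Of 15 genes of the ADAM3 maturation system, all tested, edgeR called 0, DESeq2 called 0 and 7 were higher at an unadjusted p of 0.05, with 13 above 0 and a median of 0.32 (-0.049 with spermatid gene scaling). Adam3 itself averaged 464 ± 8.83 FPKM in the libraries labelled cKO and 384 ± 60.8 FPKM in those labelled control (SD, n = 3 each; log2 0.37, SE 0.14), and the related Adam5 416 ± 5.81 FPKM in the libraries labelled cKO and 344 ± 57.1 FPKM in those labelled control. Cmtm2a, whose loss in the mouse along with Cmtm2b removes ADAM3 from sperm, averaged 566 ± 5.57 FPKM in the libraries labelled cKO and 484 ± 65.7 FPKM in those labelled control. Cmtm2b averaged 315 ± 3.63 FPKM in the libraries labelled cKO and 269.8 ± 39.1 FPKM in those labelled control. The groups overlapped for Cmtm2b, through the library labelled control replicate 2, and not for the other 3.

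Acrosin, the best known acrosomal protease, and its partners carry other symbols and are not members. Of 14 listed genes of this system, 13 were listed and 10 tested, and edgeR called 0 of them. At an unadjusted p of 0.05, 4 were higher and 1 was lower, and DESeq2 called 1 lower and 0 higher. With TMM scaling 8 were above 0 and 2 below, with a median of 0.32, and with spermatid gene scaling the median was -0.037. Acr, encoding acrosin, averaged 109 ± 6.04 FPKM in the libraries labelled cKO and 91.4 ± 16.2 FPKM in those labelled control, below Prss39 in both groups. Acrbp, which holds proacrosin in the acrosome, averaged 302 ± 10.4 FPKM in the libraries labelled cKO and 256 ± 41.3 FPKM in those labelled control. The acrosin inhibitor Spink2 averaged 332 ± 5.91 FPKM in the libraries labelled cKO and 287 ± 48.5 FPKM in those labelled control. Zpbp2, a zona pellucida binding protein of the acrosome, averaged 176 ± 5.52 FPKM in the libraries labelled cKO and 142 ± 22.6 FPKM in those labelled control (SD, n = 3 each). Spink8, an inhibitor gene that did not pass the filter, had 0.33, 0.67 and 0.33 FPKM in the libraries labelled cKO, against 1.05, 0.52 and 2.89 FPKM in those labelled control.

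A run of 6 testis proteases lies within 67.4 kb of mm10 chromosome 9, from 110797248 to 110864629, in the order Prss42, Prss44, Prss43, Prss45, Prss46 and Prss50. Each was detected in every library, at mean levels from 10.99 FPKM for Prss44 to 47.9 FPKM for Prss46. Prss42, whose knockdown in cultured mouse testis impairs meiosis, had 28.2, 28.9 and 25.8 FPKM in the libraries labelled cKO, against 22.6, 26.3 and 18.9 FPKM in those labelled control (log2 0.39, SE 0.15). Prss43, linked to meiosis in the same way, had 15.6, 16.7 and 15.6 FPKM in the libraries labelled cKO, against 14.1, 16.01 and 11.2 FPKM in those labelled control (log2 0.31, SE 0.16). Both overlapped between groups, in each case through the library labelled control replicate 2. Prss44 had 12.6, 12.01 and 11.04 FPKM in the libraries labelled cKO, against 10.5, 10.9 and 8.91 FPKM in those labelled control, without overlap (log2 0.34, SE 0.14). Prss45 had 29.9, 33.03 and 25.96 FPKM in the libraries labelled cKO, against 25.98, 29.1 and 20.6 FPKM in those labelled control (log2 0.33, SE 0.17). Prss46 had 52.3, 55.3 and 50.1 FPKM in the libraries labelled cKO, against 46.7, 47.8 and 35.5 FPKM in those labelled control (log2 0.38, SE 0.14). The groups overlapped for Prss45 but not for Prss46.

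At the end of this run, Prss50, whose catalytic serine is replaced by threonine in the human protein, showed a smaller difference than the other 5. It had 16.5, 17.7 and 15.7 FPKM in the libraries labelled cKO, against 17.5, 16.02 and 12.7 FPKM in those labelled control (log2 0.21, SE 0.16; adjusted p = 0.370). The libraries labelled control replicates 1 and 2 lay within the range of those labelled cKO, and replicate 3 below it. Whether Prss50 differs from its neighbours was not tested.

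**Figure D3:**
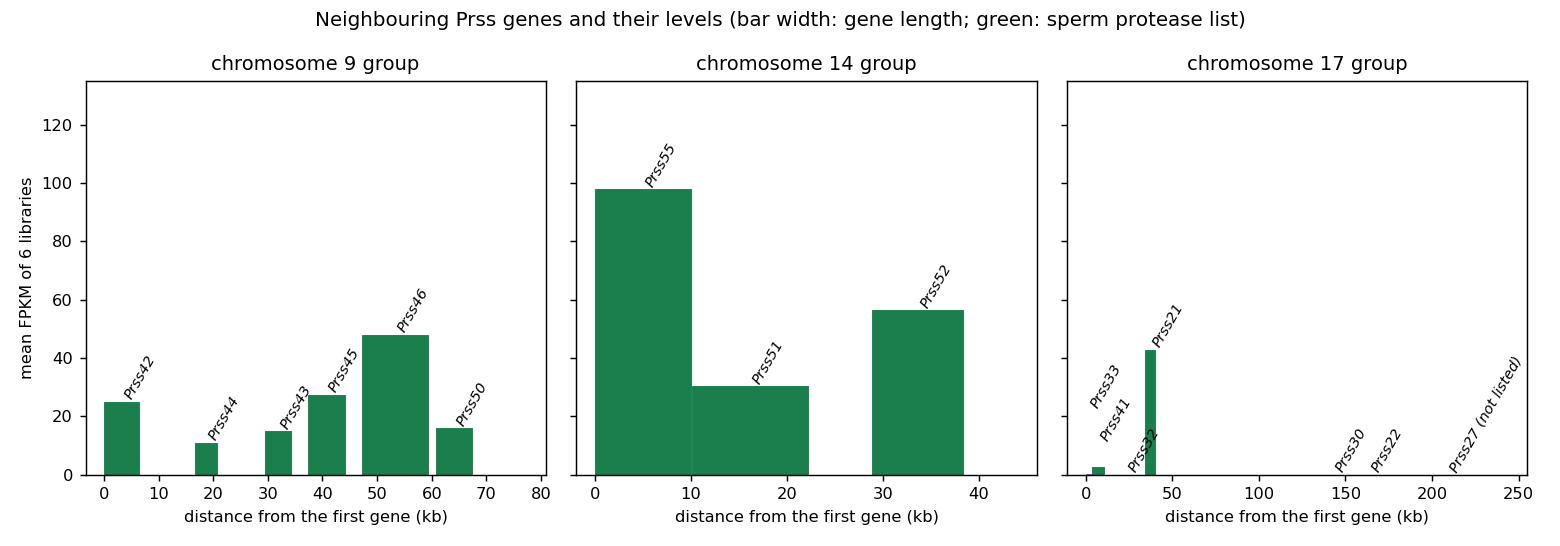
Mean FPKM over the 6 libraries (bar height) against distance from the first gene in kb (horizontal axis, bar width is the gene's length) for 3 groups of neighbouring Prss genes. All 6 genes of the chromosome 9 group and all 3 of the chromosome 14 group are sperm proteases (green) at 10.99 FPKM or more. The chromosome 17 group holds Prss21 at 42.9 FPKM as well as Prss33 at 0.142 FPKM and Prss41 at 2.72 FPKM.

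On chromosome 14, Prss55, Prss51 and Prss52 lie within 38.3 kb (64075435 to 64113751). Prss51 had 32.7, 33.5 and 32.4 FPKM in the libraries labelled cKO, against 27.5, 32.01 and 23.99 FPKM in those labelled control, without overlap (log2 0.32, SE 0.14). Prss52 had 65.8, 53.2 and 64.8 FPKM in the libraries labelled cKO, against 52.1, 61.0 and 41.1 FPKM in those labelled control, with overlap (log2 0.35, SE 0.18). In GENCODE, Prss51 and Prss55 overlap on opposite strands, and Prss52 overlaps an antisense gene. The sources used here do not say whether counting used strand, so reads from the stretch shared by such a pair may not be told apart. An overlapping gene was found for 12 of the 32 tested members, among them Prss40, Prss41, Prss23, Prss48 and Prss38. The overlap is of outer gene bounds and is a short stretch in several of them, and exons were not compared. Prss54, on chromosome 8, is a testis gene with 6 transcripts in the deposited tables and had 60.5, 54.3 and 53.7 FPKM in the libraries labelled cKO, against 48.1, 51.0 and 38.9 FPKM in those labelled control, without overlap (log2 0.39, SE 0.14).

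The chromosome 17 group showed the opposite arrangement, with strong and silent genes side by side. Its 7 genes span 213 kb (23833338 to 24045949), where genes were grouped if the gap between neighbours was at most 100 kb. Prss30, Prss22 and Prss27 belong to it only narrowly, since the gap between Prss21 and Prss30 was 99005 bases. Prss21 stood in it at a mean of 42.9 FPKM, while Prss33, Prss32, Prss30 and Prss22 were at 0.142 FPKM or below and Prss27 was in no table. Prss41, a testis protease gene next to Prss33, had 2.70, 2.92 and 2.34 FPKM in the libraries labelled cKO, against 3.22, 2.96 and 2.18 FPKM in those labelled control. It was the lowest sperm protease and the one whose groups differed least (log2 0.027, SE 0.26; adjusted p = 0.954), and its sign turned with the scaling, to -0.070 by library totals and -0.33 by spermatid markers.

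Among the 32 other members, 7 had a mean FPKM of at least 1, and they did not move as one. Prss58, a trypsin-like gene near the trypsinogens on chromosome 6, had 74.6, 64.4 and 70.1 FPKM in the libraries labelled cKO, against 59.7, 68.1 and 49.1 FPKM in those labelled control (log2 0.34, SE 0.15). Prss56, known from the eye, where its loss makes the eyeball small in humans and mice, had 13.3, 13.9 and 12.3 FPKM in the libraries labelled cKO, against 11.4, 11.2 and 9.73 FPKM in those labelled control (log2 0.38, SE 0.13; adjusted p = 0.166). By level and difference both lay among the sperm proteases, Prss58 with overlap between groups and Prss56 without, and with the spermatid scaling they stood at -0.026 and 0.0090. Prss48 had 5.01, 6.75 and 5.84 FPKM in the libraries labelled cKO, against 4.48, 4.59 and 4.31 FPKM in those labelled control, with no overlap (log2 0.49, SE 0.21; adjusted p = 0.182). Prss38 had 3.75, 2.96 and 4.60 FPKM in the libraries labelled cKO, against 3.76, 3.62 and 2.60 FPKM in those labelled control (log2 0.28, SE 0.27). Prss23, a widely expressed secreted protease, had 5.79, 5.16 and 4.63 FPKM in the libraries labelled cKO, against 5.07, 4.88 and 5.58 FPKM in those labelled control (log2 0.10, SE 0.14). For Prss38 and Prss23 the libraries of each group lay within or across the range of the other.

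Prss35, first described in the mouse ovary and lacking the usual catalytic serine, stood lower under the label cKO and varied widely among the libraries labelled control. It had 4.83, 4.2 and 4.29 FPKM in the libraries labelled cKO, against 11.1, 5.57 and 26.6 FPKM in those labelled control. All 3 libraries labelled cKO were below all 3 labelled control, as in 26.1% of the genes tested, and the highest of the control libraries was 4.77 times the lowest. The log2 fold change was -1.58 (SE 0.49), which did not pass in edgeR (adjusted p = 0.166). DESeq2 called it lower (adjusted p = 0.0133), and so did edgeR when control-labelled replicate 2 was left out (-1.93, adjusted p = 0.00888). With control-labelled replicate 3 left out it was -0.82 (adjusted p = 0.175), and across the alternatives its adjusted p lay between 0.00888 and 0.377.

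Among the control-labelled libraries, Prss35 and the Leydig and Sertoli marker sums had the same order, highest in replicate 3 and lowest in replicate 2. The sum of 8 macrophage genes had that order too. It was 103, 43.4 and 205 FPKM in the libraries labelled control, against 35.9 to 41.9 FPKM in those labelled cKO. The order therefore does not single out 1 somatic cell type, and no ratio to the macrophage sum was computed. In a ratio computed after its values were seen, Prss35 per 1000 FPKM of Leydig markers was 3.23, 2.54 and 2.84 FPKM in the libraries labelled cKO, against 2.62, 2.64 and 2.58 FPKM in those labelled control. The groups overlap in this ratio, at 2.87 ± 0.344 FPKM in the libraries labelled cKO and 2.61 ± 0.0316 FPKM in those labelled control (SD, n = 3 each). Per 1000 FPKM of Sertoli markers it was 5.32, 4.58 and 4.96 FPKM in the libraries labelled cKO, against 6.75, 4.84 and 9.14 FPKM in those labelled control, again with overlap. Of the Leydig markers 10 of 10 and of the Sertoli markers 13 of 13 had a log2 fold change below 0, with medians of -1.69 and -1.004; the part of these cells in the difference of Prss35 was not tested.

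**Figure D4:**
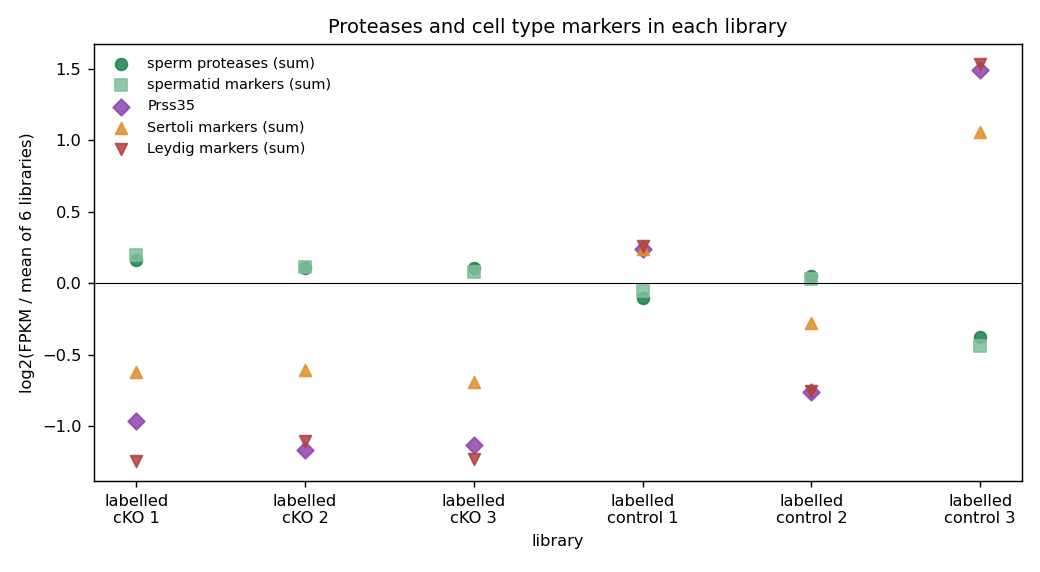
Log2 of the FPKM over its mean of the 6 libraries (vertical axis) in each library (horizontal axis) for the summed sperm proteases, the summed spermatid, Sertoli and Leydig markers, and Prss35. The sperm proteases lie beside the spermatid markers in every library. Prss35 has the order of the Leydig and Sertoli markers among the libraries labelled control, with its highest value, 26.6 FPKM, in the library labelled control replicate 3. The macrophage marker sum, which had the same order as Prss35 among the libraries labelled control, is not drawn. The figure therefore does not single out a somatic cell type for Prss35.

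Tmprss6 and Tmprss13, both low membrane proteases that passed the filter, stood lower under the label cKO, as Prss35 did. Tmprss6, which in the liver cuts the hepcidin co-receptor hemojuvelin, had 0.65, 0.62 and 0.42 FPKM in the libraries labelled cKO, against 1.68, 1.01 and 2.15 FPKM in those labelled control. Tmprss13, a membrane protease known from the skin, had 0.10, 0.10 and 0.12 FPKM in the libraries labelled cKO, against 0.50, 0.38 and 0.69 FPKM in those labelled control. Neither overlapped between groups, with the libraries labelled cKO the lower, as in 26.1% of the genes tested. Tmprss13 was fitted at log2 -2.18 (SE 0.36; adjusted p = 0.166), with expected counts of 6, 6 and 7 in the libraries labelled cKO, against 29, 22 and 39 in those labelled control. It passed the filter through the libraries labelled control, where it was higher, so its size is not set against that of other members. It lay below 0 in every alternative that kept it, from -2.61 with spermatid scaling to -1.95 without the library labelled control replicate 3, and it was called lower only when control-labelled replicate 2 was left out (edgeR adjusted p = 0.00970). Tmprss6 was at -1.21 (SE 0.33; adjusted p = 0.166), and its deposited length differed between the libraries labelled cKO, from 1513 to 2589 bases, against 1622 to 1688 bases in those labelled control. In GENCODE an antisense gene overlaps Tmprss13.

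The remaining tested members were at 1.57 FPKM or below in every library. Prss36, a protease with several catalytic domains in a row, had 0.52, 0.55 and 0.41 FPKM in the libraries labelled cKO, against 0.99, 0.57 and 1.57 FPKM in those labelled control, without overlap (log2 -0.96, SE 0.39; adjusted p = 0.173). Tmprss5, known from the nervous system, ran from 0.32 to 0.58 FPKM in the libraries labelled cKO, against 0.60 to 0.88 in those labelled control, also without overlap (log2 -0.64, SE 0.34). Prss12, or neurotrypsin, which cuts agrin at synapses, ran from 0.10 to 0.31 FPKM in the libraries labelled cKO, against 0.22 to 0.84 in those labelled control (log2 -1.30, SE 0.60). Tmprss2, known as an androgen-regulated prostate protease, ran from 0.24 to 0.44 FPKM in the libraries labelled cKO, against 0.23 to 1.14 in those labelled control (log2 -0.79, SE 0.57). Both overlapped between groups, with the highest value in the library labelled control replicate 3. With that library left out, Tmprss2 was at -0.0013 and Prss12 at -0.74, and with control-labelled replicate 2 left out they were at -1.15 and -1.63. Prss36 likewise was at -0.56 and -1.22 in these fits. Prss53 ran from 0.17 to 0.26 FPKM in the libraries labelled cKO, against 0.21 to 0.36 in those labelled control (log2 -0.47, SE 0.39), and Tmprss9 from 0.39 to 0.61 FPKM in the libraries labelled cKO, against 0.53 to 0.81 in those labelled control (log2 -0.20, SE 0.31). Tmprss11b and Tmprss11f, of an epithelial gene group on chromosome 5, overlapped between groups, with Tmprss11b from 0.42 to 0.61 FPKM in the libraries labelled cKO, against 0.36 to 0.64 in those labelled control, and Tmprss11f from 0.16 to 0.28 FPKM in the libraries labelled cKO, against 0.16 to 0.20 in those labelled control. Counting error is not small at these levels.

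Of the 32 others, 16 passed the filter, 7 with a log2 fold change above 0 and 9 below, and 16 did not. A member at a low level could pass through the group where it was higher, so these counts describe only the genes that passed. With no filter, all 32 were fitted and their median was 0.0072, against -0.33 for the 16. In FPKM, 2 of the 16 stood higher without overlap, Prss56 and Prss48, and 5 lower, Prss35, Tmprss6, Tmprss13, Prss36 and Tmprss5, beside 9.6% and 26.1% of all genes tested. Leaving out control-labelled replicate 2, edgeR tested 18 of the others. It called 2 higher, Prss58 and Prss56, and 4 lower, Prss35, Tmprss6, Tmprss13 and Prss36. Of all 18641 genes in that fit, 11% were called higher and 20.7% lower, so the others stood near the share of all genes.

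The 16 members below the filter were at 0.33 FPKM or below in every library, and 10 of the 48 members were missing from at least 1 table. The 16 were Tmprss11d, Tmprss7, Prss33, Prss2, Prss8, Prss32, Tmprss15, Tmprss3, Tmprss11a, Prss16, Tmprss11g, Tmprss11e, Prss34, Prss30, Tmprss4 and Prss22. They include enteropeptidase (Tmprss15), which activates trypsinogen in the gut, the epithelial channel-activating protease prostasin (Prss8) and the basophil and mast cell protease Prss34. Expected counts of Prss34 were 2, 1 and 1 in the libraries labelled cKO and was in no table of those labelled control, and those of Tmprss11e were 5, 4 and 3 in the libraries labelled cKO, against 0, 1 and 0 in those labelled control. Among the RefSeq symbols that match the rule, 8 of 56 were in no table: Prss1 and Prss3, which like Prss2 are trypsinogens, the uterine implantation proteases Prss28 and Prss29, and Prss27, Prss47, Prss57 and Tmprss11c.

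Markers of the pancreas and the epididymis were low as well. Of 10 pancreatic acinar genes, Ctrb1 was in no table, and the sum of the list was 2.39 to 2.98 FPKM in the libraries labelled cKO, against 2.41 to 6.52 in those labelled control. Of 14 epididymis genes, Lcn5, Lcn8, Lcn9, Lcn10 and Spink12 were in no table, and the sum was 2.19 to 6.15 FPKM in the libraries labelled cKO, against 3.11 to 5.75 in those labelled control. Of 9 mast cell genes, Fcer1a and Ms4a2 were in no table, and the sum was 12.9 to 15.6 FPKM in the libraries labelled cKO, against 16.3 to 39.7 in those labelled control; that list includes Kit, which germ cells and Leydig cells also express. The 8 macrophage genes summed to 35.9 to 41.9 FPKM in the libraries labelled cKO, against 43.4 to 205 in those labelled control. The 12 spermatocyte genes summed to 4203 to 4336 FPKM in the libraries labelled cKO, against 3119 to 4193 in those labelled control.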

How the data were processed

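The deposited tables hold, per the file headers, an expected count, an FPKM value and a length (another per-gene column, in bases) for each gene. Expected counts were deposited without scaling for depth, and the authors' FPKM values are scaled for gene length and for depth. RSEM, HISAT2 2.0.4, Bowtie2 2.2.5, bcl2fastq 2.16, DESeq2 and mm10 are named in the submitters' processing notes, with no role. Listed FPKM values start at 0.01, and genes not listed for a library were given 0 there. Of the expected counts 24.6 to 25.8% were not whole, and all were rounded.

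Counts were tested with edgeR 4.0.16 in R 4.3.3 (filterByExpr, minimum count 10, minimum total 15; TMM; quasi-likelihood F-test; Benjamini-Hochberg adjustment over 18269 genes). The SE is the log2 fold change divided by the square root of F. The common coefficient of variation was 22.8%, and 3 libraries against 3 cannot give a two-sided exact permutation p below 0.1. Alternatives were DESeq2 1.42.0, limma 3.58.1 on log2(FPKM + 1) and log2(FPKM + 0.1), other scalings and filters, the replicate block and leaving out each library. The tests were checked on simulated data with the same spread for all genes, no shift in cell types and larger changes than those of the sperm proteases. That check does not measure their power or error for differences as small as those of the sperm proteases.

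Every member with a mean FPKM of at least 1 is named with its values, as are the 4 most abundant genes of the acrosin and ADAM3 lists. Members, lists and motifs were chosen with earlier results of these data known. All 48 members matched RefSeq by Entrez identifier.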

Additional observations from a re-analysis of the deposited data

How the results depend on the processing

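With DESeq2 size factors, library totals, no filter, the 5 CPM filter and the replicate block, edgeR called 0 members, as it did in the fit described above; limma on FPKM called 0 members and 1 gene higher of all genes, with either pseudocount. In the fit with TMM scaling, 9 of the 16 sperm proteases were higher at an unadjusted p of 0.05, beside 8.85% of all genes tested. That count does not hold across scalings. Prss40, for 1, had an edgeR unadjusted p of 0.021 with TMM, 0.054 by library totals and 0.85 with spermatid gene scaling. DESeq2 called 85 genes higher and 1458 lower, with 1 of the other members, Prss35, lower. Leaving out 1 library gave 0 to 2049 genes called higher and 0 to 3851 lower, 0 to 12 sperm proteases higher, and 0 to 2 of the other members higher and 0 to 4 lower. The highest of these counts came without control-labelled replicate 2, where 11% of all genes were called higher and 20.7% lower. The median of the sperm proteases ran from 0.24 to 0.49 without 1 library and was -0.028 with spermatid gene scaling. That of the other members was -0.33 and ran from -0.44 to -0.066 without 1 library; it was -0.71 with spermatid gene scaling, 0.0072 with no filter, 0.19 with the 5 CPM filter, 0.015 in DESeq2, and 0.14 and 0.17 in limma with pseudocounts of 1 and 0.1, where other sets of genes enter the median. Scaling moved the median of all genes to -0.10 by library totals and -0.39 by spermatid genes.

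With spermatid gene scaling the sign turned for 13 of the 23 named members: Prss37 at -0.077, Prss55 at -0.042, Prss58 at -0.026, Prss52 at -0.0083, Prss40 at -0.024, Prss51 at -0.041, Prss45 at -0.035, Prss50 at -0.16, Prss43 at -0.047, Prss44 at -0.033, Prss23 at -0.30, Prss38 at -0.078 and Prss41 at -0.33. Prss41 also turned by library totals (-0.070) and in limma (-0.045 and -0.056), and ran from -0.14 to 0.12 without 1 library. The cause of these turns, beyond the shift of all genes, was not tested.

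The deviations of same-numbered libraries from their group means correlated at 0.043, -0.0067 and -0.039 for numbers 1, 2 and 3. Differently numbered libraries were not compared in this way, so these values do not decide whether replicate numbers pair the libraries. With the replicate block the medians were 0.35 and -0.33, and 0 genes were called. Depth limits the members below 1 FPKM, whose values rest on few reads; intervals for them were not computed.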
